A study of Homo sapiens with 12 samples.

Results

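The genes of the extracellular matrix and basement membrane were followed in EA.hy926, a hybrid human line obtained from a fusion of umbilical vein endothelium and A549 lung carcinoma cells. A list of 35 gene symbols defined the set: 12 collagens, 7 laminins, 10 other glycoproteins (among them 2 proteoglycans), 3 proteases and 3 inhibitors of proteases. All 35 were found among the 51141 symbols of the count table, and 32 had enough counts to be tested, of 14447 genes tested in all. COL6A2 (a chain of collagen VI) had 35 counts over all libraries together, NID2 (nidogen 2) had 6 and FBLN1 (fibulin 1) had 4, so these 3 were left out of every test. Messenger RNA was measured in 12 libraries, 3 in each of 4 groups. Control cells received no chelator and stayed at normal oxygen. Hypoxia cells received no chelator and spent 8 h in 1% oxygen. TEPA cells were given 50 µM TEPA (a polyamine chelator that binds copper) for 16 h and then 8 h at normal oxygen, and TEPA+hypoxia cells had the same 16 h of TEPA followed by 8 h in 1% oxygen. All groups were the same single cell line in serum-containing medium, with no genetic change named.

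The basement membrane is a thin sheet of matrix beneath endothelial cells. Laminin heterotrimers (an alpha, a beta and a gamma chain) and collagen IV each form a network, and nidogen and the heparan sulfate proteoglycan perlecan link them. Fibronectin, thrombospondins, fibrillin and the fibrillar collagens form the interstitial matrix around it, matrix metalloproteinases cut these proteins, and the TIMP proteins inhibit the metalloproteinases. Endothelial cells deposit and remodel this matrix during angiogenesis, and some matrix and collagen-modifying genes are known targets of the hypoxia-inducible factors.

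The libraries hypoxia 2 and hypoxia 3 differed from the other 10, and this touches every result that uses the hypoxia group. The first principal component of all tested genes held 76.2% of the variance and placed them at 126 and 105, against -51.6 to 11.8 for the others. Library totals ran from 13406858 to 24778944 counts, and the 35 matrix genes took 0.834% to 0.917% of the counts in hypoxia 2 and 3, against 1.37% to 1.90% in the other 10. The 10 epithelial markers summed to 15777 to 18401 CPM in hypoxia 2 and 3 and to 5672 to 7944 CPM elsewhere (CPM are counts scaled by library total and TMM factor, edgeR's correction for composition). The sum of the 12 endothelial markers was 3308 to 3410 CPM in those 2 libraries and 2572 to 2947 CPM elsewhere, with CLDN5 and EMCN at 0 in all 12. The 12 fibroblast and mural markers summed to 84.8 to 89.0 CPM against 127 to 156 CPM, with COL3A1 and DCN at 0 in every library, and the 8 leukocyte markers to 190 to 205 CPM against 149 to 185 CPM, with PTPRC at 0. CDH1 was the epithelial marker at 0 throughout. Results with the hypoxia group are therefore given with and without hypoxia 2 and 3. Without them 1 hypoxia library is left, and the fit assumes that it varies like the other groups.

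Promoter sequence is shown for the genes whose start sites or values the results return to: the shared start of the paired collagen IV genes, the 2 most abundant laminin chains, the member with the lowest hypoxia values relative to control and the one with the highest. Sequences are from RefSeq (GRCh38.p14), 5′ to 3′ on the strand given, and for single genes they cover the 250 bases before the start. Capitals mark the core of the hypoxia response element, ACGTG or GCGTG, searched on both strands. COL4A1 and COL4A2 run in opposite directions, and the 126 bases shown for them lie between their first bases.
COL4A1-COL4A2 span, chr13:110307158-110307283, + strand: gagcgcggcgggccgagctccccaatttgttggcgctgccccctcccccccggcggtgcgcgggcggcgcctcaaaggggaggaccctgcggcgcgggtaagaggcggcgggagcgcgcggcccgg
LAMB1, chr7:108003162-108003411, - strand: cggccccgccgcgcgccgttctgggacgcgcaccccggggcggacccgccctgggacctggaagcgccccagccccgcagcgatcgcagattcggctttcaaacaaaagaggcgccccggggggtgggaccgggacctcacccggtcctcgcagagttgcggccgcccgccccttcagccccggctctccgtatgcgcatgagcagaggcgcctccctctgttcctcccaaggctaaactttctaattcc
LAMC1, chr1:183023170-183023419, + strand: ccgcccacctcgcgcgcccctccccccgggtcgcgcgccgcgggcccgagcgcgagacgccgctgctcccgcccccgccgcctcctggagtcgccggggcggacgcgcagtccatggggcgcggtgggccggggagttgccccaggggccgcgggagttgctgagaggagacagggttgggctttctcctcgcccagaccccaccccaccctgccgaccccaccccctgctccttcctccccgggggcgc
THBS1, chr15:39580829-39581078, + strand: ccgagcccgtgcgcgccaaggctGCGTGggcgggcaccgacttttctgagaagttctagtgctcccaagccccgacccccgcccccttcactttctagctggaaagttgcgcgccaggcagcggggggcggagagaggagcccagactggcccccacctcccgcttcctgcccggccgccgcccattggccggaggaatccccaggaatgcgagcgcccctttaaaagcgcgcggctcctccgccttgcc
TIMP1, chrX:47582186-47582435, + strand: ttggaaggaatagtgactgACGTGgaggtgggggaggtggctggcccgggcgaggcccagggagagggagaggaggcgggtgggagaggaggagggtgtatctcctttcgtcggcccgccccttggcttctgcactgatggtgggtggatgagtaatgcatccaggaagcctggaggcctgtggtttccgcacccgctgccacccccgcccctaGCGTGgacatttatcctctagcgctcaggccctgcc
The span between the collagen IV genes held no core match and was 80.2% G and C. Over the full 250 bases before the start, COL4A2 held 1 match, at -220 and so outside the span, and COL4A1 held 0. LAMB1 and LAMC1 held none, THBS1 held 1, at base -227 from the start, and TIMP1 held 2, at -231 and -36. A RefSeq window was found for 27 of the 35 genes, in 32 windows, and 13 of these windows (40.6%) held a core match, beside 43.2% of the 35116 windows of all genes. The match is a description of these letters only.

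In control cells the secreted proteases MMP1 and MMP2 and thrombospondin 1 were the most abundant matrix transcripts per length, followed by LAMB1, TIMP1, TIMP3, LAMC1 and LAMA4. MMP1 (interstitial collagenase, which cuts fibrillar collagens) stood at 461 CPM per kb of transcript, MMP2 (gelatinase A, which degrades denatured collagen and collagen IV) at 446 and THBS1 (thrombospondin 1, an antiangiogenic glycoprotein that also activates latent TGF-beta) at 418. The control libraries of these 3 genes overlapped, so their order is not resolved. LAMB1 (laminin beta 1) stood at 241 CPM per kb, TIMP1 at 217, TIMP3 at 215, LAMC1 (laminin gamma 1) at 158 and LAMA4 (laminin alpha 4, the endothelial alpha chain) at 153. Among the collagens COL8A1 (a short-chain collagen of vessel walls) came first at 106 CPM per kb and COL5A2 (a fibrillar collagen V chain) second at 69.7. COL4A1 stood at 8.59 and COL4A2 at 0.832 CPM per kb, although these 2 chains build the common collagen IV trimer together. COL1A1 (collagen I) and COL12A1 (a fibril-associated collagen) were lowest, at 0.105 and 0.110 CPM per kb, from 8 to 18 and 3 to 33 counts per library. The level plot shows that the tested collagens spanned the widest range of the 5 classes.

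**Figure D1:**
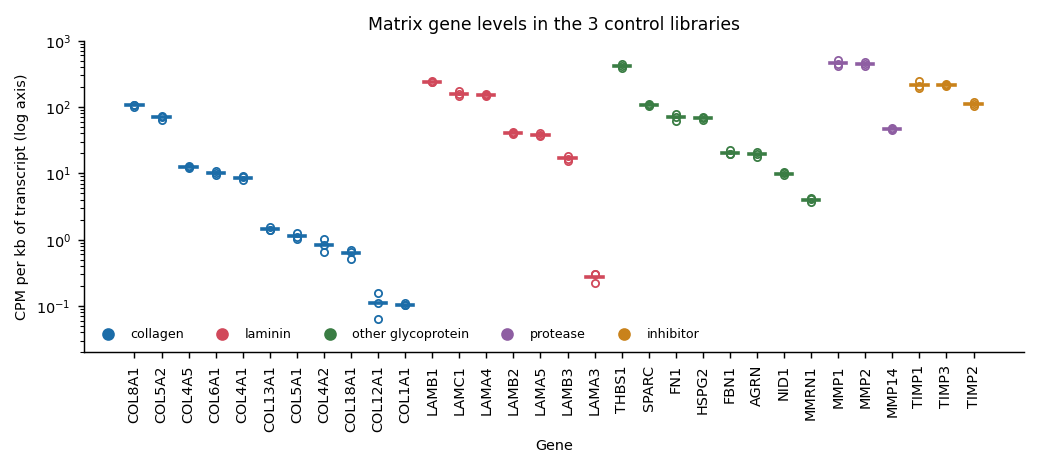
Level of the 32 tested matrix genes in the 3 control libraries, as CPM per kb of transcript on a log axis, grouped by class; circles are libraries and bars the mean. MMP1 (461), MMP2 (446) and THBS1 (418) are at the top, COL12A1 (0.110) and COL1A1 (0.105) at the bottom.

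Hypoxia against control asks how 8 h of low oxygen changed the matrix transcripts in cells without TEPA. With all 12 libraries, 15 of the 32 tested genes fell (46.9%) and 5 rose (15.6%), while of all 14447 genes 27.8% fell and 29.4% rose (edgeR quasi-likelihood F-test, Benjamini-Hochberg adjusted p under 0.05). The median log2 fold change was -0.30 over the matrix genes and -0.01 over all genes. Without hypoxia 2 and 3, 1 gene fell (THBS1) and 0 rose, beside 0.23% and 0.283% of all genes, and the matrix median was -0.14. Counts at an unadjusted p under 0.05 are given below without the share of all genes. They cannot be read as a result about the matrix genes. In bulk RNA fewer cells of a type and less RNA per cell cannot be told apart. The part of the marker shifts in these results was not tested.

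**Figure D2:**
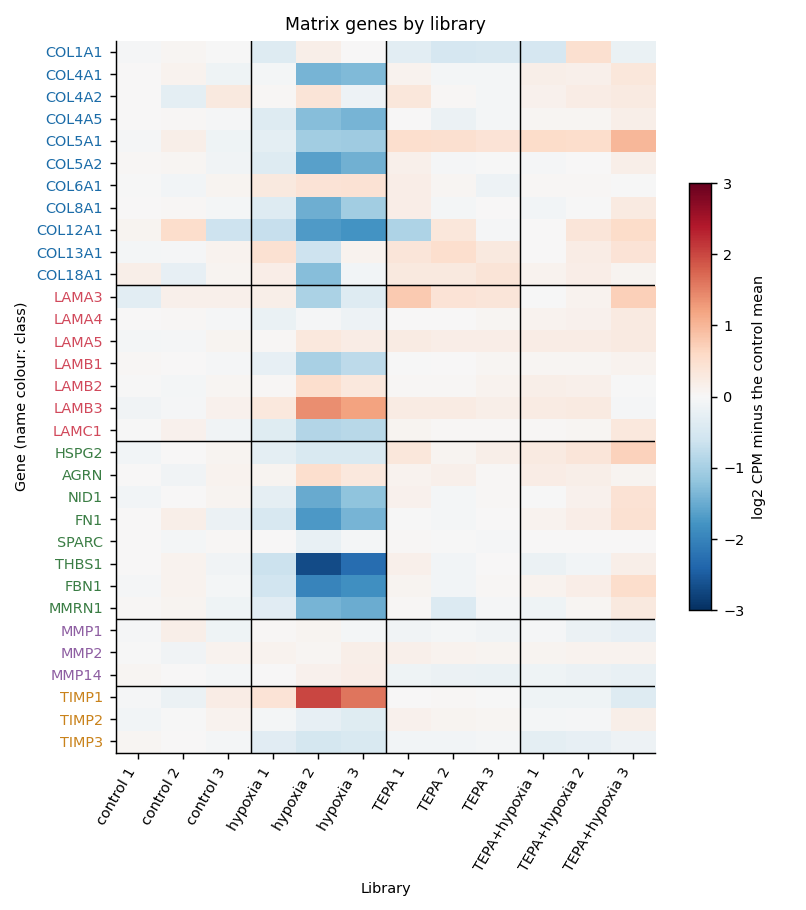
log2 CPM of each tested matrix gene minus its control mean (colour) in each of the 12 libraries, with genes ordered by class. The strongest colours stand in the columns of hypoxia 2 and hypoxia 3, where THBS1 is lowest and TIMP1 highest; hypoxia 1 has the same signs for both in paler colour.

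Among the collagens, 6 of 11 tested fell, 1 rose and 4 did not pass the test. COL5A2 (chr2:189031896-189225312) was at 506, 516 and 459 CPM in control 1 to 3, at 376, 160 and 181 CPM in hypoxia 1 to 3, at 545, 478 and 490 CPM in TEPA 1 to 3 and at 484, 496 and 558 CPM in TEPA+hypoxia 1 to 3. All 3 hypoxia libraries lay below all controls, hypoxia 2 and 3 far below. COL5A2 had a log2 fold change of -1.04 ± 0.25 (± SE here and below, adjusted p = 0.00733), and the value without hypoxia 2 and 3 was -0.39 ± 0.10 (adjusted p = 0.0868). COL8A1 (chr3:99638475-99799226) read 610, 623 and 577 CPM in control, 458, 220 and 291 CPM in hypoxia, 690, 579 and 604 CPM in TEPA and 574, 597 and 725 CPM in TEPA+hypoxia. Hypoxia did not overlap any other group for this gene either. Its log2 fold change was -0.90 ± 0.21 (adjusted p = 0.00692), and with hypoxia 2 and 3 left out it was -0.40 ± 0.12 (adjusted p = 0.109).

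The second fibrillar collagen V chain, COL5A1 (chr9:134641774-134844843), was much less abundant: 9.21, 10.7 and 8.69 CPM in control, 7.76, 4.55 and 4.46 CPM in hypoxia, 13.6, 13.3 and 12.7 CPM in TEPA and 13.9, 13.6 and 19.0 CPM in TEPA+hypoxia. Every TEPA and TEPA+hypoxia library lay above every control library, and every hypoxia library below. The hypoxia change was -0.76 ± 0.22 (adjusted p = 0.0142), and the call was lost without control 2 (-0.67), hypoxia 2 (-0.63) or hypoxia 3 (-0.63). With hypoxia 2 and 3 both left out it was -0.29 ± 0.21 (adjusted p = 0.411). COL4A5 (chrX:108439844-108697545), a collagen IV chain of specialised basement membranes, read 82.3, 83.2 and 79.0 CPM in control, 61.9, 33.8 and 31.1 CPM in hypoxia, 81.6, 72.4 and 77.7 CPM in TEPA and 85.1, 84.5 and 92.5 CPM in TEPA+hypoxia. The hypoxia libraries were again the lowest 3 of the 12. COL4A5 fell by 0.94 ± 0.21 (adjusted p = 0.00617), and stood at -0.40 ± 0.10 (adjusted p = 0.0842) without hypoxia 2 and 3.

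COL12A1 (chr6:75084326-75206051) had 13 to 32 counts per control library and 11, 4 and 3 counts in hypoxia 1 to 3, so its value rests on few reads. Its CPM were 1.29, 1.82 and 0.753 in control, 0.712, 0.294 and 0.267 in hypoxia, 0.588, 1.56 and 1.19 in TEPA and 1.22, 1.60 and 1.82 in TEPA+hypoxia. Hypoxia and control did not overlap, but hypoxia 1 lay close to control 3 and above TEPA 1. The log2 fold change was -1.53 ± 0.51 (adjusted p = 0.0244), a call that was lost without control 1, control 2, hypoxia 2 or hypoxia 3 (-1.54, -1.22, -1.32 and -1.33), and -0.85 ± 0.63 with hypoxia 2 and 3 both left out. COL1A1 (chr17:50183289-50201632) did not pass the test in any pair of groups. It read 0.691, 0.738 and 0.695 CPM in control, 0.518, 0.808 and 0.713 CPM in hypoxia, 0.549, 0.463 and 0.475 CPM in TEPA and 0.466, 1.03 and 0.607 CPM in TEPA+hypoxia, with TEPA below control in all 3 libraries.

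The paired collagen IV genes had different values. COL4A1 fell by 0.79 ± 0.28 (adjusted p = 0.0314), with 54.0 CPM in hypoxia 1 inside the control range and 21.6 and 22.7 CPM in hypoxia 2 and 3. COL4A2, whose RefSeq start lies on the other side of the 126 bases printed above, had 5.50, 7.05 and 4.81 CPM in hypoxia. Its log2 fold change was 0.10 ± 0.20. The CPM ratio of COL4A1 to COL4A2 was 3.06 to 4.72 in hypoxia 2 and 3 and 7.93 to 14.1 in the other 10 libraries, so the separation belongs to those 2 libraries. Without them COL4A1 stood at -0.07 ± 0.12. COL6A1 (collagen VI alpha 1) was the collagen that rose, by 0.38 ± 0.11 (adjusted p = 0.0133), with 52.0 to 57.4 CPM in hypoxia and 40.3 to 45.5 CPM in control. Its value without hypoxia 2 and 3 was 0.28 ± 0.13 (adjusted p = 0.215), and the call was also lost without control 2 (0.33) or hypoxia 3 (0.34). COL13A1, a transmembrane collagen, and COL18A1, the source of endostatin, did not pass (log2 0.05 and -0.28, and 0.47 and 0.19 without hypoxia 2 and 3), and COL18A1 shares 16.4% of its exonic length with SLC19A1 on the other strand, so reads of both can be mixed where counting ignored strand (its setting is not given here). The same share was 0.492% to 7.89% for COL4A2, LAMA4, LAMA5, LAMB1, SPARC, MMP1 and TIMP2.

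The laminins split by chain: LAMB1 and LAMC1 fell, LAMB2 and LAMB3 rose, and the 3 alpha chains did not pass the test. LAMB1 (chr7:107923799-108003255) read 1415, 1391 and 1358 CPM in control, 1163, 703 and 811 CPM in hypoxia, 1373, 1397 and 1448 CPM in TEPA and 1440, 1455 and 1503 CPM in TEPA+hypoxia. LAMC1 (chr1:183023460-183145592) read 1239, 1357 and 1148 CPM in control, 969, 674 and 700 CPM in hypoxia, 1313, 1269 and 1271 CPM in TEPA and 1271, 1299 and 1547 CPM in TEPA+hypoxia. For both chains all hypoxia libraries lay below all others, with hypoxia 1 the nearest to control. LAMB1 fell by 0.64 ± 0.15 (adjusted p = 0.00676) and LAMC1 by 0.68 ± 0.14 (adjusted p = 0.00601). Without hypoxia 2 and 3 the values were -0.26 ± 0.08 and -0.36 ± 0.11 (adjusted p = 0.105 for both). The ratio of LAMB1 to LAMC1 was 1.04 to 1.16 in hypoxia 2 and 3, within the 0.972 to 1.20 of the other 10 libraries, so these 2 chains kept their proportion.

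LAMA4 (chr6:112108760-112254939) did not follow its partner chains. It read 1005, 1024 and 968 CPM in control, 867, 982 and 894 CPM in hypoxia, 999, 1003 and 1037 CPM in TEPA and 1068, 1096 and 1206 CPM in TEPA+hypoxia. Hypoxia and control overlapped, and the log2 fold change was -0.13 ± 0.09 (adjusted p = 0.219). The ratio of LAMA4 to LAMC1 was 1.28 to 1.46 in hypoxia 2 and 3 and 0.754 to 0.894 elsewhere. LAMA5 (chr20:62307955-62367312), the other endothelial alpha chain, read 420, 428 and 465 CPM in control, 447, 547 and 509 CPM in hypoxia, 523, 499 and 503 CPM in TEPA and 514, 512 and 526 CPM in TEPA+hypoxia. Its control libraries were mostly the lowest, with hypoxia 1 inside their range, and the hypoxia change of 0.19 ± 0.09 did not pass (adjusted p = 0.0871).

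LAMB3 (chr1:209614870-209652466), the beta chain of the epithelial laminin of hemidesmosomes, had the largest increase of the laminins. It read 66.9, 70.9 and 79.3 CPM in control, 89.9, 190 and 166 CPM in hypoxia, 85.1, 86.1 and 80.9 CPM in TEPA and 86.3, 86.9 and 70.0 CPM in TEPA+hypoxia. Hypoxia 2 and 3 stood far above all other libraries, while hypoxia 1 lay just above the TEPA groups. LAMB3 rose by 1.04 ± 0.22 (adjusted p = 0.00601), and the value without hypoxia 2 and 3 was 0.31 ± 0.14 (adjusted p = 0.192). LAMA3, the alpha chain of the same laminin, had 20 and 25 counts in hypoxia 2 and 3 and 50 to 131 in the other 10 libraries, and a log2 fold change of -0.33 ± 0.31 (0.17 ± 0.33 without those 2 libraries). The summed epithelial markers were high in the same 2 libraries as LAMB3, and their part in the result was not tested. LAMB2 (laminin beta 2) rose by 0.29 ± 0.11 (adjusted p = 0.0454), but passed in only 1 of the 12 fits that each left out 1 library (0.16 to 0.38), and stood at 0.03 ± 0.10 without hypoxia 2 and 3.

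**Figure D3:**
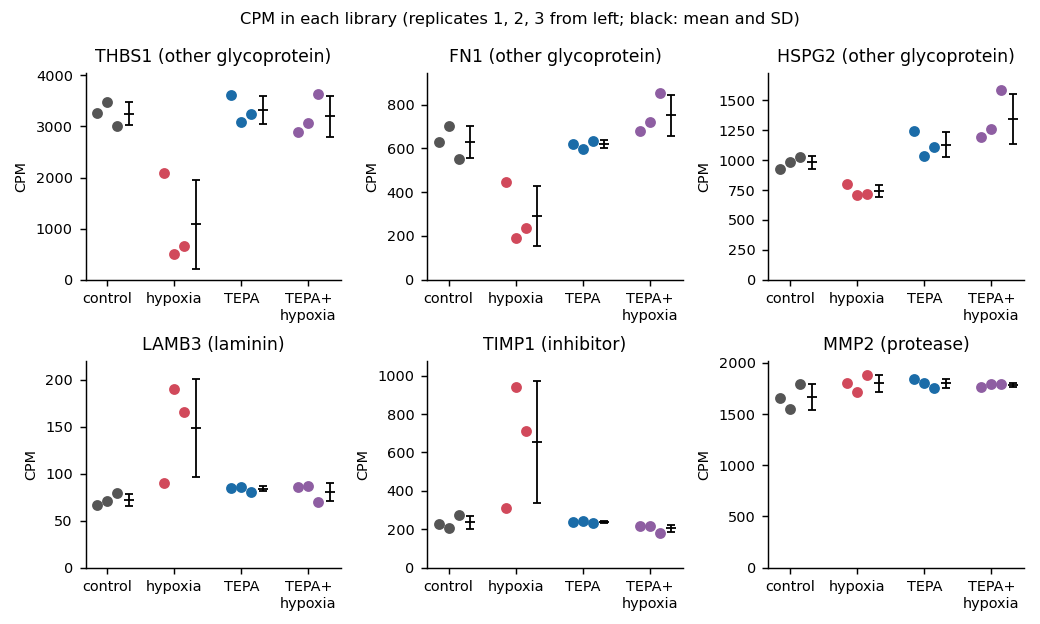
CPM in each library for 6 matrix genes, replicates 1 to 3 from left in each group, with the mean and SD in black; each axis starts at 0. THBS1 and FN1 are lowest and LAMB3 and TIMP1 highest in hypoxia 2 and 3, with hypoxia 1 between them and control; HSPG2 is lower in all 3 hypoxia libraries, and the groups of MMP2 overlap.

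Of the 8 other glycoproteins tested, 6 fell and 1 rose. THBS1 (chr15:39581079-39599466) read 3270, 3470 and 3015 CPM in control, 2089, 507 and 666 CPM in hypoxia, 3615, 3084 and 3250 CPM in TEPA and 2886, 3063 and 3643 CPM in TEPA+hypoxia. All hypoxia libraries lay below the other 9, hypoxia 1 included. THBS1 fell by 1.58 ± 0.40 (adjusted p = 0.00886). It was the 1 matrix gene that passed without hypoxia 2 and 3, at -0.64 ± 0.12 (adjusted p = 0.0436), and it also passed there after a correction for GC content and length, at -0.29 ± 0.06 (adjusted p = 0.0214). Its exons share 7.58% of their length with genes on the other strand.

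FN1 (chr2:215360440-215436172) encodes fibronectin, the ligand of integrin alpha 5 beta 1. It read 630, 702 and 553 CPM in control, 446, 188 and 236 CPM in hypoxia, 622, 598 and 634 CPM in TEPA and 678, 718 and 854 CPM in TEPA+hypoxia. FBN1 (chr15:48408306-48645849), fibrillin 1 of the microfibrils, read 234, 261 and 231 CPM in control, 163, 61.6 and 67.7 CPM in hypoxia, 258, 227 and 248 CPM in TEPA and 258, 278 and 349 CPM in TEPA+hypoxia. Both genes had their lowest 3 libraries in hypoxia, and their highest in TEPA+hypoxia 3. FN1 fell by 1.12 ± 0.25 (adjusted p = 0.00631) and FBN1 by 1.31 ± 0.30 (adjusted p = 0.0064). Leaving out hypoxia 2 and 3, they stood at -0.50 ± 0.13 (adjusted p = 0.0853) and -0.57 ± 0.14 (adjusted p = 0.0691).

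The 2 linkers of the basement membrane networks also fell. HSPG2 (perlecan, chr1:21822245-21937297) read 928, 985 and 1029 CPM in control, 802, 712 and 716 CPM in hypoxia, 1240, 1039 and 1114 CPM in TEPA and 1190, 1262 and 1585 CPM in TEPA+hypoxia. The 4 groups lined up from hypoxia through control to the TEPA groups, which overlapped each other. HSPG2 fell by 0.40 ± 0.12 (adjusted p = 0.0163), with the call lost without hypoxia 3 (-0.38) and a value of -0.29 ± 0.13 without both hypoxia 2 and 3, and 11.7% of its exonic length is shared with LDLRAD2 on the other strand. NID1 (nidogen 1, chr1:235975830-236065162) read 54.6, 58.6 and 61.4 CPM in control, 48.3, 20.3 and 25.3 CPM in hypoxia, 63.3, 56.1 and 59.7 CPM in TEPA and 57.7, 63.5 and 78.7 CPM in TEPA+hypoxia. Hypoxia 1 was about as far below control as the control libraries were from each other, and hypoxia 2 and 3 were far lower. NID1 fell by 0.89 ± 0.26 (adjusted p = 0.0136), with the call lost without hypoxia 3 (-0.77), and stood at -0.27 ± 0.15 (adjusted p = 0.292) without hypoxia 2 and 3.

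MMRN1 (multimerin 1, a factor V binding protein of platelets and endothelium, chr4:89879532-89954629) read 21.2, 21.9 and 19.1 CPM in control, 16.3, 7.86 and 7.31 CPM in hypoxia, 21.1, 15.7 and 20.4 CPM in TEPA and 19.0, 21.5 and 25.4 CPM in TEPA+hypoxia. TEPA 2 lay just below hypoxia 1, so these 2 groups overlapped, while hypoxia and control did not. MMRN1 fell by 0.97 ± 0.27 (adjusted p = 0.0112), and stood at -0.35 ± 0.19 without hypoxia 2 and 3. AGRN (agrin, a proteoglycan that binds laminin) was the member of this class that rose, by 0.31 ± 0.11 (adjusted p = 0.0348), and it passed in 3 of the 12 fits that left out 1 library (0.19 to 0.39), with 0.08 ± 0.11 without hypoxia 2 and 3. SPARC (osteonectin, a collagen-binding protein) stood at 341 to 411 CPM in all libraries and at -0.08 ± 0.09.

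None of the 3 metalloproteinases passed the test of hypoxia against control. MMP2 (chr16:55389700-55506691) read 1657, 1546 and 1797 CPM in control, 1799, 1720 and 1885 CPM in hypoxia, 1841, 1799 and 1759 CPM in TEPA and 1762, 1794 and 1796 CPM in TEPA+hypoxia. MMP1 (chr11:102789920-102798160) read 882, 1018 and 824 CPM in control, 923, 953 and 867 CPM in hypoxia, 842, 873 and 840 CPM in TEPA and 877, 799 and 760 CPM in TEPA+hypoxia. The groups of both genes overlapped, hypoxia 2 and 3 included, and the log2 fold changes were 0.11 ± 0.09 for MMP2 and 0.01 ± 0.10 for MMP1. MMP14 (chr14:22836557-22849027), the membrane-bound protease that activates pro-MMP2, read 180, 175 and 167 CPM in control, 176, 189 and 199 CPM in hypoxia, 159, 155 and 152 CPM in TEPA and 160, 154 and 149 CPM in TEPA+hypoxia. Both TEPA groups lay below both groups without TEPA, and the hypoxia change was 0.11 ± 0.08 (adjusted p = 0.25).

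The inhibitors went different ways. TIMP1 (chrX:47582313-47586789), a secreted inhibitor of most metalloproteinases, read 229, 209 and 274 CPM in control, 312, 943 and 712 CPM in hypoxia, 237, 243 and 234 CPM in TEPA and 216, 216 and 180 CPM in TEPA+hypoxia. Every hypoxia library lay above the other 9, with hypoxia 1 close to control 3 and the other 2 far above. TIMP1 rose by 1.47 ± 0.30 (adjusted p = 0.00601), and stood at 0.39 ± 0.14 (adjusted p = 0.138) without hypoxia 2 and 3. TIMP3 (chr22:32801701-32863043), the matrix-bound inhibitor, read 1022, 997 and 947 CPM in control, 784, 687 and 716 CPM in hypoxia, 941, 932 and 951 CPM in TEPA and 809, 832 and 889 CPM in TEPA+hypoxia. Hypoxia was lowest, TEPA+hypoxia next and the groups at normal oxygen highest, with hypoxia 1 between the other hypoxia libraries and TEPA+hypoxia. TIMP3 fell by 0.44 ± 0.08 (adjusted p = 0.00601) and stood at -0.34 ± 0.08 (adjusted p = 0.0701) without hypoxia 2 and 3.

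TIMP2 (chr17:78852977-78925387), which takes part in the activation of MMP2 by MMP14, read 385, 408 and 439 CPM in control, 395, 347 and 318 CPM in hypoxia, 450, 431 and 424 CPM in TEPA and 393, 398 and 462 CPM in TEPA+hypoxia. Hypoxia 1 lay inside the control range, and the change of -0.22 ± 0.11 did not pass (adjusted p = 0.0952). The plot of the hypoxia response with and without hypoxia 2 and 3 places all 32 genes together.

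**Figure D4:**
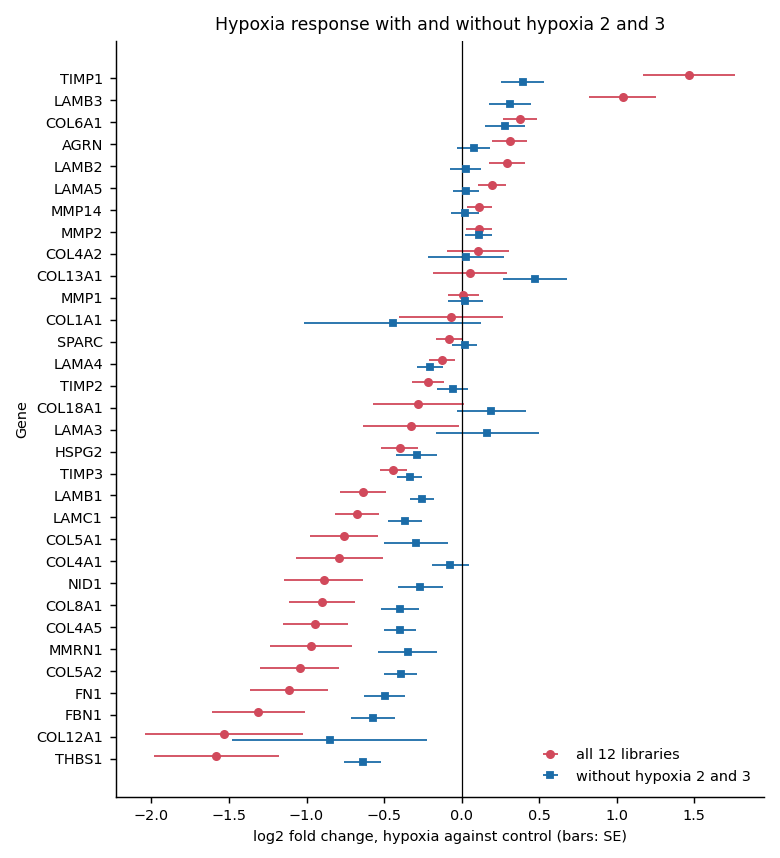
log2 fold change of hypoxia against control with its SE for the 32 tested matrix genes, with all 12 libraries (circles) and without hypoxia 2 and 3 (squares). THBS1 goes from -1.58 to -0.64 and TIMP1 from 1.47 to 0.39, and most squares lie nearer 0 than their circles.

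GC content and transcript length moved with these differences. The 15 genes that fell had a median GC content of 48.7% (37.6% to 64.5%) and a median transcript of 7081 bases, the 5 that rose 60.3% (57.9% to 67.5%) and 4305 bases. Over the 32 genes, the difference of a library from the control mean had a Spearman correlation with GC content of 0.58, 0.57 and 0.64 in hypoxia 1 to 3, and 0.38, 0.52 and 0.55 over 12556 genes with a GC value (genes within a library share its depth and base composition). The trend was not confined to hypoxia: over the 32 genes the correlation was -0.29, -0.64 and 0.62 in control 1 to 3 (deviations from their own mean), 0.45, 0.46 and 0.27 in TEPA 1 to 3 and 0.47, 0.49 and -0.15 in TEPA+hypoxia 1 to 3. A rank correlation does not measure size, and the differences themselves were widest in hypoxia 2 and 3. After correction for GC content and length, 9 of the 32 genes fell and 5 rose, beside 17.2% and 26.9% of all genes tested. COL4A5, COL5A1, COL5A2, COL8A1, HSPG2, NID1, FN1, THBS1 and FBN1 still fell, and LAMB2, LAMB3 and TIMP1 still rose. LAMB1 and LAMC1 then stood at -0.12 ± 0.07 and -0.02 ± 0.05, and TIMP1 at 0.44 ± 0.11 (adjusted p = 0.0114). LAMA4 and SPARC rose in that fit, by 0.63 ± 0.16 and 0.35 ± 0.08, against the sign without the correction, and TIMP3 turned to 0.06 ± 0.08. With the correction and without hypoxia 2 and 3, THBS1 fell and 0 genes rose, beside 0.94% and 1.23% of all genes.

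**Figure D5:**
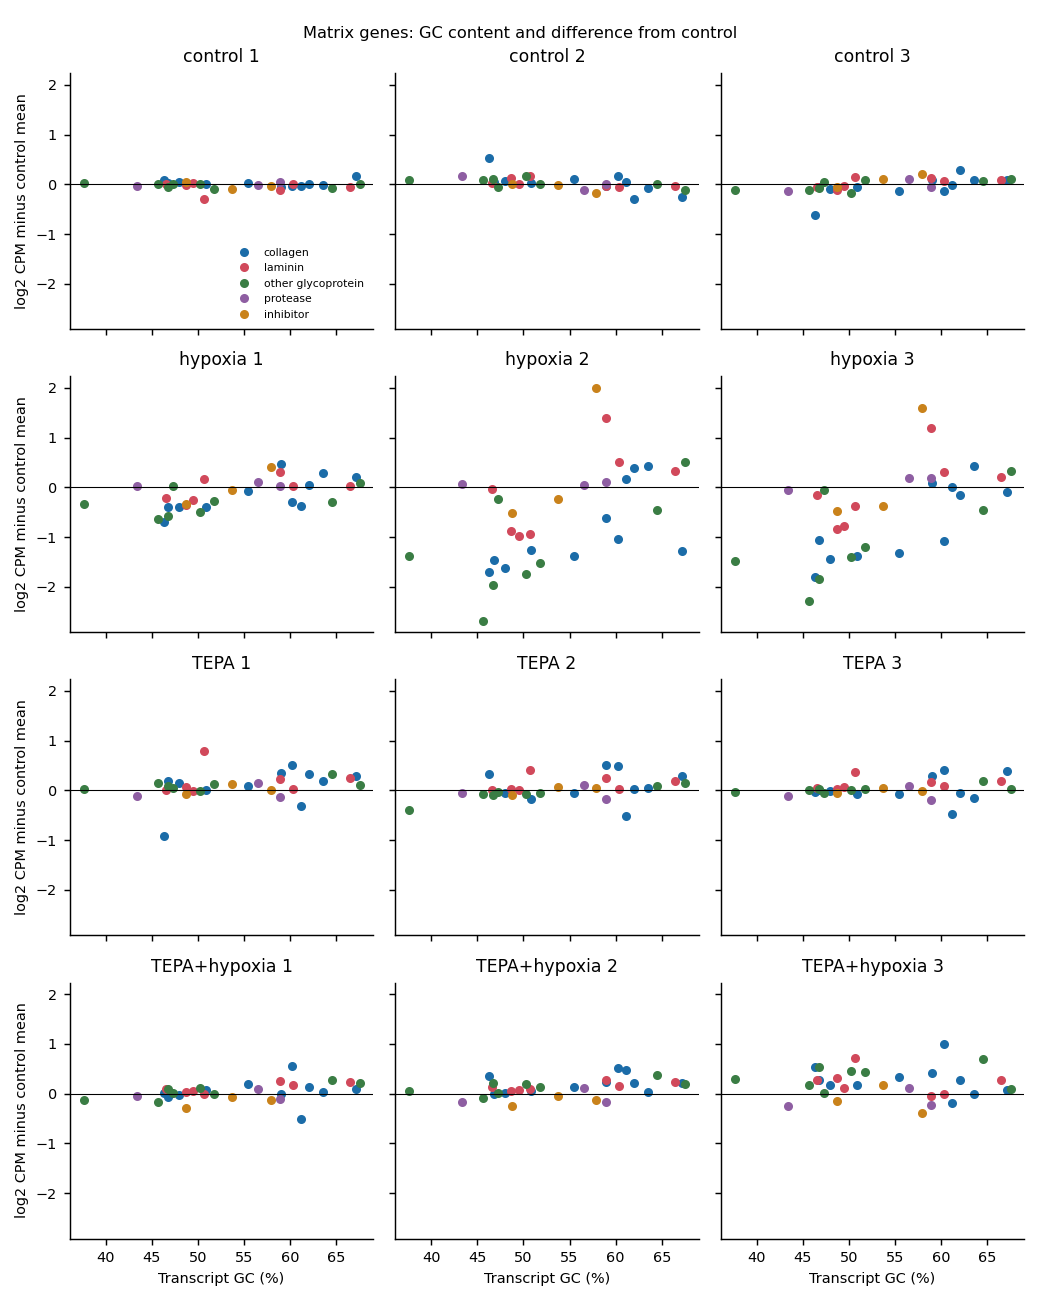
log2 CPM minus the control mean against transcript GC content (%) for the 32 tested matrix genes in each of the 12 libraries, coloured by class. Genes of low GC lie lower in the 3 hypoxia libraries (Spearman 0.58, 0.57 and 0.64), and a correlation of 0.62 over a much narrower range of differences is seen in control 3.

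TEPA+hypoxia against TEPA asks for the same response to low oxygen in cells given TEPA. Here 0 of the 32 genes rose and 0 fell by edgeR, beside 0.0623% and 0.0346% of all genes, and 0 passed even at an unadjusted p under 0.05. DESeq2 called 0 (1 at an unadjusted p under 0.05), beside 0.637% higher and 0.367% lower over all genes. By limma-voom 0 were called (0), beside 0.0623% and 0.0208%. The counts at an unadjusted p have no share of all genes beside them and cannot be read as a result about the matrix genes. Without hypoxia 2 and 3, whose spread enters the shared estimate, 0 rose and 0 fell, beside 1.32% and 0.842% of all genes, and 7 passed at an unadjusted p under 0.05. The values were -0.05 ± 0.40 for THBS1, -0.22 ± 0.29 for TIMP1, 0.28 ± 0.25 for FN1, 0.25 ± 0.12 for HSPG2 and -0.05 ± 0.22 for LAMB3. The groups did not overlap for 6 of the 32 genes with TEPA+hypoxia higher (18.8%) and 3 with it lower (9.38%), beside 12.5% and 18.0% of all genes. COL4A1, COL4A5, COL5A1, LAMA4, FN1 and FBN1 were higher in all 3 TEPA+hypoxia libraries than in any TEPA library, and COL18A1, TIMP1 and TIMP3 lower. With the GC and length correction and without hypoxia 2 and 3, COL4A1 and FN1 rose (0.20 and 0.19) and THBS1 and TIMP3 fell (-0.17 and -0.20), beside 2.53% and 6.15% of all genes.

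TEPA against control asks what TEPA did at normal oxygen. The counts were 0 and 0 of 32 by edgeR, beside 0% and 0% of all genes, and 2 passed at an unadjusted p under 0.05 (COL5A1 at 0.0444 and LAMA5 at 0.037). DESeq2 called 0 (3 at an unadjusted p under 0.05), beside 0.00692% higher and 0.0346% lower over all genes. By limma-voom 0 were called (2), beside 0% and 0%. Here too the counts at an unadjusted p have no share of all genes beside them and cannot be read as a result. Without hypoxia 2 and 3 the counts stayed at 0, beside 0% higher and 0.0263% lower over all genes, with 7 at an unadjusted p under 0.05. All TEPA libraries lay above all controls for 7 of the 32 genes (COL5A1, COL13A1, COL18A1, LAMA3, LAMA5, LAMB3 and HSPG2) and below for 2 (COL1A1 and MMP14), beside 6.64% and 6.92% of all genes. Among these, COL5A1 stood at 0.47 ± 0.21, LAMA5 at 0.22 ± 0.09, HSPG2 at 0.21 ± 0.12, LAMB3 at 0.22 ± 0.22 and MMP14 at -0.16 ± 0.08. All 7 laminin values were above 0, from 0.02 to 0.55, and none passed.

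TEPA+hypoxia against hypoxia compares the 2 treatments at low oxygen. It shares the hypoxia libraries with the first comparison. With all libraries, 16 of 32 genes were higher with TEPA (50.0%) and 4 lower (12.5%), beside 30.9% and 30.6% of all genes. By class the higher genes were 6 collagens, 3 laminins, 6 other glycoproteins and TIMP3, and the lower ones COL6A1, LAMB3, MMP14 and TIMP1. FBN1 was higher by 1.60 ± 0.30 (adjusted p = 0.00219), THBS1 by 1.56 ± 0.40 (adjusted p = 0.00709), COL5A1 by 1.46 ± 0.22 and FN1 by 1.37 ± 0.25 (adjusted p = 0.00217 for both). HSPG2 was higher by 0.86 ± 0.12 (adjusted p = 0.00217) and LAMA4 by 0.30 ± 0.09 (adjusted p = 0.0119). TIMP1 was lower, at -1.68 ± 0.30 (adjusted p = 0.00217), and MMP14 at -0.29 ± 0.08 (adjusted p = 0.0112). TIMP3, at 0.21 ± 0.08, passed in 1 of the 12 fits that left out 1 library.

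Without hypoxia 2 and 3, 12 genes were still higher and TIMP1 lower, beside 7.98% and 7.17% of all genes, and all 13 were among those called with all libraries. They were COL4A5 (0.50), COL5A1 (1.01), COL5A2 (0.46), COL8A1 (0.47), LAMA4 (0.38), LAMB1 (0.34), LAMC1 (0.51), HSPG2 (0.75), NID1 (0.47), FN1 (0.76), THBS1 (0.62) and FBN1 (0.86), with TIMP1 at -0.60 and adjusted p from 0.0178 to 0.0468. This rests on hypoxia 1 alone for the hypoxia side. After the GC and length correction with all libraries 10 were higher and 6 lower, beside 18.2% and 31.3% of all genes, and LAMA4, SPARC and TIMP3 were then lower. With the correction and without hypoxia 2 and 3, COL5A1 (0.75), HSPG2 (0.43), FN1 (0.32) and FBN1 (0.29) were higher and TIMP1 lower (-0.24), beside 3.76% and 8.63% of all genes. These 5 genes passed in every one of the 4 fits. In TEPA+hypoxia 1 to 3 the Spearman correlation between transcript length and difference from control was 0.42, 0.56 and 0.67 over the 32 genes and 0.06, 0.14 and 0.46 over the 12556 genes, beside 0.46 and 0.44 in control 2.

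The test of whether hypoxia acted differently with TEPA than without is the interaction, the response in TEPA cells minus the response in cells without it. It was above 0 at the threshold for 13 of 32 genes and below it for 2, beside 17.3% and 21.5% of all genes. The 13 were COL4A5, COL5A1, COL5A2, COL8A1, COL12A1, LAMB1, LAMC1, HSPG2, NID1, FN1, THBS1, FBN1 and MMRN1, all of which fell in hypoxia without TEPA. The 2 were LAMB3 and TIMP1, which rose there. The interaction subtracts the change of hypoxia against control and so uses the same libraries. Opposite signs in these 2 comparisons are therefore not separate support. FBN1 had 1.58 ± 0.42, THBS1 1.53 ± 0.56, FN1 1.39 ± 0.35 and TIMP1 -1.69 ± 0.41 (adjusted p = 0.0236, 0.0497, 0.0236 and 0.0236). The counts were 0 and 0 without hypoxia 2 and 3, beside 0% and 0% of all genes, where FN1 stood at 0.79 ± 0.16 and FBN1 at 0.86 ± 0.17 (adjusted p = 0.0643 for both). They were also 0 and 0 on leaving out control 1, control 2, hypoxia 3, TEPA 2 or TEPA+hypoxia 3 alone, and 0% of all genes passed in each of these 5 fits. After the GC and length correction COL4A5, COL5A1, HSPG2, FN1 and FBN1 were above 0 and LAMB3, TIMP1 and SPARC below, beside 4.96% and 15.3% of all genes. With the correction and without hypoxia 2 and 3 the counts were 0 and 0, beside 0.416% and 1.28% of all genes.

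Further genes of the pathway were counted from 8 lists. In hypoxia against control with all libraries, 4 of 22 tested matrix receptors rose and 10 fell, 7 of 29 other glycoproteins and proteoglycans rose and 9 fell, 7 of 17 other proteases rose and 6 fell, and 3 of 16 TGF-beta signalling genes rose and 10 fell. Of 15 genes of collagen secretion and trimming 7 rose and 4 fell, of 6 other collagens 3 rose and 1 fell, of 5 other inhibitors 1 rose and 1 fell, and of 2 other laminins 0 passed. Over all genes 29.4% rose and 27.8% fell, and several of these lists are near those shares. After the GC and length correction the TGF-beta list had 6 risen and 5 fallen, and its median log2 fold change went from -0.42 to 0.02. The receptors then had 4 risen and 8 fallen, the other glycoproteins 3 and 6, the other proteases 4 and 4, and the secretion genes 5 and 3. Over all genes in that corrected fit 26.9% rose and 17.2% fell. Without hypoxia 2 and 3, 0 genes of any of these lists passed. ITGB4, the integrin beta 4 chain that binds laminin, rose by 0.55 (adjusted p = 0.00601). Its CPM were 42.3, 44.2 and 41.6 in control, 57.3, 63.8 and 66.1 in hypoxia, 51.5, 49.0 and 50.3 in TEPA and 75.1, 61.7 and 70.5 in TEPA+hypoxia. Both low-oxygen groups lay above both groups at normal oxygen for this receptor, hypoxia 1 included. In TEPA+hypoxia against TEPA it stood at 0.46 (adjusted p = 0.202), and it passed there without hypoxia 2 and 3, at 0.47 (adjusted p = 0.0127).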

How the data were processed

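RNA was extracted with TRIzol, poly(A) selected and made into libraries with a directional kit, per the labels' protocols. The authors deposited raw read counts per gene symbol, 1 column per library, and used HISAT2 2.1.0, the GRCh38 build and DESeq, per the submitters' processing notes. For the read counter, annotation and strand setting the labels and header name nothing, so each is not given in the sources used here. Here the counts were filtered with filterByExpr by group, scaled by TMM and fitted over all 12 libraries with 1 mean per group and no covariate in edgeR 4.0.16 (R 4.3.3, limma 3.58.1). Each gene was tested with the quasi-likelihood F-test (two-sided), and p-values were adjusted by Benjamini-Hochberg over all 14447 genes tested, which held 99.9% of the counts. A gene rose or fell at an adjusted p under 0.05, and errors of log2 fold changes are SE from that fit. The TMM factor was 0.772 and 0.838 in hypoxia 2 and 3 and 1.03 to 1.08 elsewhere, so CPM there are higher than totals alone would give. A floor of 3 counts was 0.118 to 0.267 CPM, and floors cover counting error only.

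The labels do not say whether replicates were separate cultures, so p-values measure only the spread between these libraries. The members and lists were chosen with earlier results of these data known. Values in every library are given for the 2 most abundant tested members of each class, the member of each class with the smallest p in each pairwise comparison, and every member that passed in TEPA+hypoxia against TEPA, TEPA against control, the interaction, or hypoxia against control without hypoxia 2 and 3. Of the other lists, at most 4 genes per list and comparison are named, from those called with the smallest p. Coordinates, lengths and GC content are from GENCODE 29 on GRCh38, which may differ from the authors' annotation. A GC value was found for 12556 of the tested genes (86.9%) and for all 32 tested members.

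Scaling was varied (RLE, upper quartile), as were the filter (none, or 1 CPM in 3 libraries) and the tool (DESeq2 1.42.0, limma-voom). Further fits blocked on replicate number, used just the 2 groups of a comparison, or dropped 1 library at a time. Chosen after seeing the data were a fit that drops hypoxia 2 and 3, a GC and length correction (a spline of 4 df in every library), and combinations with each other or the block. The fit was tested on simulated data with the same spread in every group and no libraries set apart. Those settings differ from these data, so that test does not show how the fit behaves here.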

Additional observations from a re-analysis of the deposited data

Results flagged for a closer look

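For 15 matrix genes the response to hypoxia with TEPA differed from the response without it by the interaction test on all 12 libraries (edgeR quasi-likelihood, adjusted p under 0.05). Of the 32 tested, 40.6% were above 0 and 6.25% below, beside 17.3% and 21.5% of all genes. On leaving out control 1, control 2, hypoxia 3, TEPA 2 or TEPA+hypoxia 3 alone, 0% of all genes passed. Of the collagens, COL12A1 differed by 2.05, COL4A5 by 1.12, COL5A2 by 1.07, COL5A1 by 0.99 and COL8A1 by 0.92 on the log2 scale. LAMC1 differed by 0.77 and LAMB1 by 0.70, the gamma and beta chains of the main endothelial laminins, and LAMB3 by -1.09. Among the other glycoproteins the difference was 1.58 for FBN1, 1.53 for THBS1, 1.39 for FN1, 1.18 for MMRN1, 1.05 for NID1 and 0.65 for HSPG2. TIMP1 had the most negative value, -1.69. Each of the 15 lost its call without hypoxia 2 and 3, where 13 of the values kept their sign above 0 and LAMB3 and TIMP1 stayed below, at -0.35 and -0.60. For each of the 15 genes hypoxia 1 differed from the control mean with the same sign as hypoxia 2 and 3, by less. Hypoxia 1 and the controls were part of the test that picked these genes, so the shared sign is not separate support.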

How the results depend on the processing

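For hypoxia against control, the count of members that rose was 5, and became 2 with no filter, 3 with the replicate block, 0 with only the 2 groups compared (edgeR, smallest adjusted p of any gene 0.0582, with 17 members at an unadjusted p under 0.05), 0 without hypoxia 2 and 3, and 0 with the GC and length correction besides. The count that fell was 15, and became 0 with only the 2 groups, 1 without hypoxia 2 and 3, 9 with the GC and length correction, 9 with that correction and the block, and 1 with the correction and without hypoxia 2 and 3. For TEPA+hypoxia against TEPA, 0 rose and 0 fell, and 2 and 2 did with the correction and without hypoxia 2 and 3. For TEPA+hypoxia against hypoxia, 16 were higher, and 10 with the correction, 10 with the correction and block, and 4 with the correction and without hypoxia 2 and 3. The 4 lower became 2 with no filter, 2 with only the 2 groups, 1 without hypoxia 2 and 3 and 1 with the correction besides. The interaction counts of 13 and 2 became 0 and 0 without hypoxia 2 and 3, with or without the correction, the 13 became 5 with the correction and 2 with correction and block, and the 2 became 1 with correction and block.

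Shares of all genes moved across the settings above as well. In hypoxia against control 13.55% rose and 14.91% fell with no filter, and 27.16% and 26.1% with the block. With only the 2 groups 0% did either way. In TEPA+hypoxia against hypoxia 16.44% were higher and 14.6% lower with no filter, and 15.8% and 21.47% with only the 2 groups. The interaction had 1.776% above 0 and 6.905% below with correction and block. Leaving out 1 library gave 2 to 6 risen and 10 to 17 fallen in hypoxia, 14 to 20 higher and 3 to 6 lower in TEPA+hypoxia against hypoxia, and 0 to 17 and 0 to 5 in the interaction. Over all genes the shares moved too, from 19.4% to 34.4% risen and 14.3% to 37.4% fallen in hypoxia. They ran from 21.3% to 39.0% higher and 23.8% to 34.5% lower in TEPA+hypoxia against hypoxia. In the interaction they ran from 0% to 35.6% and 0% to 30.4%. The 5 risen became 2 without control 2 or hypoxia 3, and 3 without control 1, hypoxia 2, any TEPA library or TEPA+hypoxia 1 or 2. The interaction's 13 became 0 without control 1, control 2, hypoxia 3, TEPA 2 or TEPA+hypoxia 3, 5 without hypoxia 2, TEPA 1 or TEPA 3, and 6 without TEPA+hypoxia 2. Its 2 became 5 without hypoxia 1 and 1 without hypoxia 2.

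Directions turned in fits with the GC and length correction. In hypoxia against control LAMA4 went to 0.63 (0.61 with the block), SPARC to 0.35 (0.35), TIMP3 to 0.059 (0.055 with the block), and COL4A1 to 0.10 with hypoxia 2 and 3 also left out. In TEPA+hypoxia against hypoxia LAMA4 went to -0.55 (-0.53 with the block, -0.027 without hypoxia 2 and 3), SPARC to -0.36 (-0.36) and TIMP3 to -0.33 (-0.33 with the block, -0.12 without hypoxia 2 and 3), and the interaction of SPARC to -0.37. The cause was not tested.

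Whether same-numbered libraries form pairs is not known. Deviations from the group mean correlated at -0.36 to 0.32 over 18 same-numbered pairs and at -0.46 to 0.49 over 36 others. With 3 libraries a group these ranges cannot decide it. Apart from the members that rose in hypoxia against control, the block without the correction moved no count by more than 1.5 times. Precision is limited by 3 libraries a group, by the spread within hypoxia and, for COL1A1, COL12A1 and LAMA3, by few counts.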

Other observations

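Genes around the matrix that the text above does not describe also differed between TEPA+hypoxia and hypoxia in the fit without hypoxia 2 and 3, where the hypoxia side is 1 library. Of 22 tested matrix receptors 7 were higher and 0 lower, with CD44, the hyaluronan receptor, at 0.70 (adjusted p = 0.0218). Of the TGF-beta signalling genes TGFBR1, the type I receptor, stood at 2.15, and of the other proteases ADAM10, a sheddase, at 0.68. TGFBR1 read 1.23 CPM in hypoxia 1, 1.97 to 5.11 CPM in control and 4.44 to 6.90 CPM in TEPA+hypoxia, so its value rests on few reads. Of 30 other glycoproteins and proteoglycans 3 were higher: CRIM1 at 1.71, FBN2 (fibrillin 2) at 0.80 and SPOCK1 (testican 1) at 0.50. Over all genes 7.98% were higher and 7.17% lower in that fit.

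CRIM1 read 68.1, 67.3 and 53.7 CPM in control, 25.2, 6.76 and 6.95 CPM in hypoxia, 91.1, 63.2 and 61.9 CPM in TEPA and 65.1, 66.0 and 116 CPM in TEPA+hypoxia. All 3 hypoxia libraries lay below the other 9. CST3 (cystatin C, an inhibitor of cysteine proteases) and PPIB (a proline isomerase of collagen folding) were lower, at -0.60 and -0.53. Of the 17 collagen secretion and trimming genes 2 were lower, PPIB and SEC13 (a COPII coat protein, -0.37), and 2 higher, MIA3 (which loads collagen for export, 0.53) and SEC23A (a COPII coat protein, 0.47). CST3 stood at 846, 2433 and 1957 CPM in hypoxia 1 to 3 and at 492 to 690 CPM in the other groups.

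Among the further genes counted from lists, only ITGB4 and SMAD7 passed in TEPA+hypoxia against TEPA without hypoxia 2 and 3. Genes outside these lists passed there too, and the shares over all genes are given above. SMAD7, an inhibitory SMAD of TGF-beta signalling, stood at -0.45. All TEPA libraries had at least 29.3 CPM, and the TEPA+hypoxia libraries read 22.8, 23.0 and 22.7 CPM, with no overlap.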
